A study of Arabidopsis thaliana with 9 samples.

Results

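Expansins and xyloglucan endotransglucosylase/hydrolases (XTHs) are the secreted proteins best known for loosening and remodelling the primary cell wall, and 31 of their genes were measured in Arabidopsis cotyledons induced to form phloem companion cells. The genes were chosen by symbol: those beginning with EXPA, EXPB, EXLA, EXLB or XTH and a number, for which a probe set named that gene alone. The brightest such probe set stood for each gene. The 31 genes were 13 alpha-expansins (EXPA), 5 beta-expansins (EXPB), 4 expansin-like genes (3 EXLA and 1 EXLB) and 9 XTH genes, among 16550 genes with such a probe set. The reference gene table lists 64 genes with these symbols, and the other 33, among them EXPA1, EXPA5, XTH4 and XTH24, were not analysed here.

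Plant cells are held by a wall of cellulose microfibrils tied together by xyloglucan and embedded in pectin. Alpha-expansins loosen this network at acid pH without cutting it, XTHs cut xyloglucan chains and join the ends to others (a few members mainly hydrolyse them), and the proteins named expansin-like share the fold but have no established wall-loosening activity. Expansin transcripts are known around differentiating xylem cells, and several genes of both families are classical targets of auxin or brassinosteroid.

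All 9 samples were wild-type Col-0 cotyledons from seedlings aged 6 days. Per the labels' protocols, they spent 48 hours in VISUAL medium, which turns leaf cells into vascular cells and held the auxin 2,4-D at 1.25 mg/L, the cytokinin kinetin at 0.25 mg/L and the GSK3 inhibitor bikinin, which activates brassinosteroid signalling, at 10 µM; transfer to the companion cell (CC) induction medium followed, and RNA was taken 96 hours into that induction. The groups were CC-S, described as inducing CC differentiation strongly, CC-M, moderately, and VISUAL, not at all, with 3 arrays each (replicates 3, 4 and 5). All groups carry this protocol, and what set their media apart is not stated in the sources used here. The labels do not call the replicates separate cultures, so p-values here reflect just the spread among these arrays, which may be technical.

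Each sample was a whole cultured cotyledon preparation, in which fewer cells of a type and less RNA per cell cannot be told apart. CC-S replicate 5 lay apart from its group on the first principal component of all probe sets, where it scored -33.8. The other CC-S arrays scored -54.0 and -55.5 and the CC-M arrays -26.0 to -11.5. It was not the only such array. VISUAL replicate 4 scored 54.9 on this component, against 70.0 and 73.0 for the other VISUAL arrays. On the second component CC-M replicate 3 scored -14.7, against -42.2 and -38.9 for the other CC-M arrays. For calls that changed when CC-S replicate 5 was left out, both results are given. None of the 9 companion cell markers looked for had a probe set named to it alone, so the labelled cell type could not be checked. Of 7 sieve element markers, CLE45 alone was measured, with log2 changes from VISUAL of -0.12 in CC-S and -0.31 in CC-M, neither called. Its mean log2 signal in VISUAL was 2.19. None of 5 epidermis markers was measured. Both measured xylem vessel genes of 12, IRX15 and GUT2 (IRX10), which act in xylan synthesis, fell from VISUAL to CC-S, by 1.91 and 1.03 on the log2 scale, and to CC-M, by 1.51 and 0.89. The log2 of their summed signal was 9.53 to 10.2 in CC-S, 9.54 to 10.2 in CC-M and 10.6 to 11.2 in VISUAL. Its part in the changes below was not tested. Of 8 mesophyll markers, 4 were measured, and the log2 of their summed signal was 10.9 to 11.0 in CC-S, 11.1 to 11.2 in CC-M and 10.8 to 11.2 in VISUAL. From VISUAL to CC-S their log2 changes were 0.60 for LHCB4.2, which was called (limma adjusted p = 0.0466), and 0.19 for RCA, -0.23 for PSAE-1 and -0.24 for LHCB4.1, which were not. The list's median was -0.02, and its part in the changes below was not tested either.

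Over all 3 comparisons, limma's test called 6 of the 31 genes, EXPA9, EXPA8, EXPA4, EXLA1, XTH19 and XTH16. A call means a Benjamini-Hochberg adjusted p, taken over all probe sets, below 0.05. From VISUAL to CC-S alone 20.2% of all genes were called, so at least that share was called in at least 1 comparison. Of the 6 genes, EXPA9 alone rose from VISUAL. The map of all genes by array shows EXPA9 as the strongest shift, with the falls spread over different groups of arrays.

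**Figure D1:**
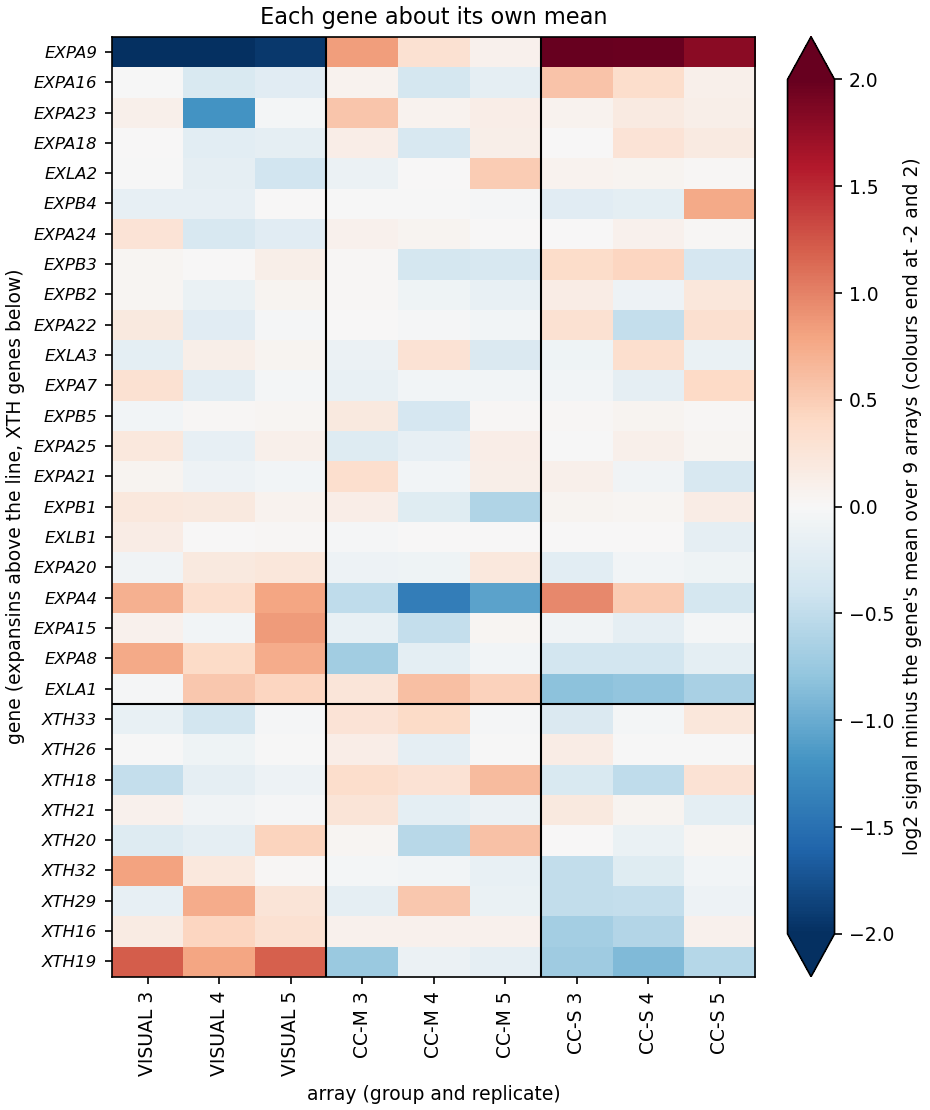
Log2 signal of the 31 genes (rows) on the 9 arrays (columns), each gene shown as its difference from its own mean over the arrays, with red above and blue below and colours ending at -2 and 2. EXPA9 runs from blue in VISUAL to red in CC-S, XTH19 runs the other way, EXPA4 is bluest in CC-M and EXLA1 is clearly blue on the 3 CC-S arrays and near or above its mean elsewhere.

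The first question is which of these genes differ where CC differentiation was strongly induced. From VISUAL to CC-S, 5 of the 31 genes were called (16.1%), against 20.2% of all genes with a single-gene probe set, so the family was not called more often than the background. EXPA9 rose, and EXPA8, EXLA1, XTH19 and XTH16 fell, where 10.2% of all genes rose and 10.0% fell. The median log2 change over the 31 was 0.04, beside -0.0046 over all genes. Values of the groups did not overlap for 8 of the 31, against 34.7% of all genes. Without CC-S replicate 5, 6 genes were called, the same 5 and EXPA16.

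From VISUAL to CC-M, 4 of the 31 were called (12.9%), against a background of 12.0%. EXPA9 rose, and EXPA8, EXPA4 and XTH19 fell, where 6.31% of all genes rose and 5.66% fell. Without CC-S replicate 5, which leaves these groups as they are and alters only the shared variance, XTH18 was called too. The median log2 change was -0.03 over the family and -0.01 over all genes, and the values of the groups did not overlap for 7 of the 31, against 28.7% of all genes. Both comparisons use the same VISUAL arrays, so their results are not independent of each other.

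Between CC-S and CC-M directly, limma called 0 of the 31, and 0.0181% of all genes. An unadjusted p under 0.05 was reached by 6 of the 31 and by 12.1% of all genes. Groups did not overlap for 5 genes, against 18.2% of all genes. A change of at least 1 on the log2 scale was seen for 3 genes, EXPA9, EXPA4 and EXLA1, and for 1.16% of all genes. Without CC-S replicate 5 these 3 were called, and the share called over all probe sets went from 0.0208% to 0.805%. None of the 3 was called in the other 8 leave-out fits. Their limma adjusted p reached 0.223 for EXPA9, 0.387 for EXPA4 and 0.209 for EXLA1.

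**Figure D2:**
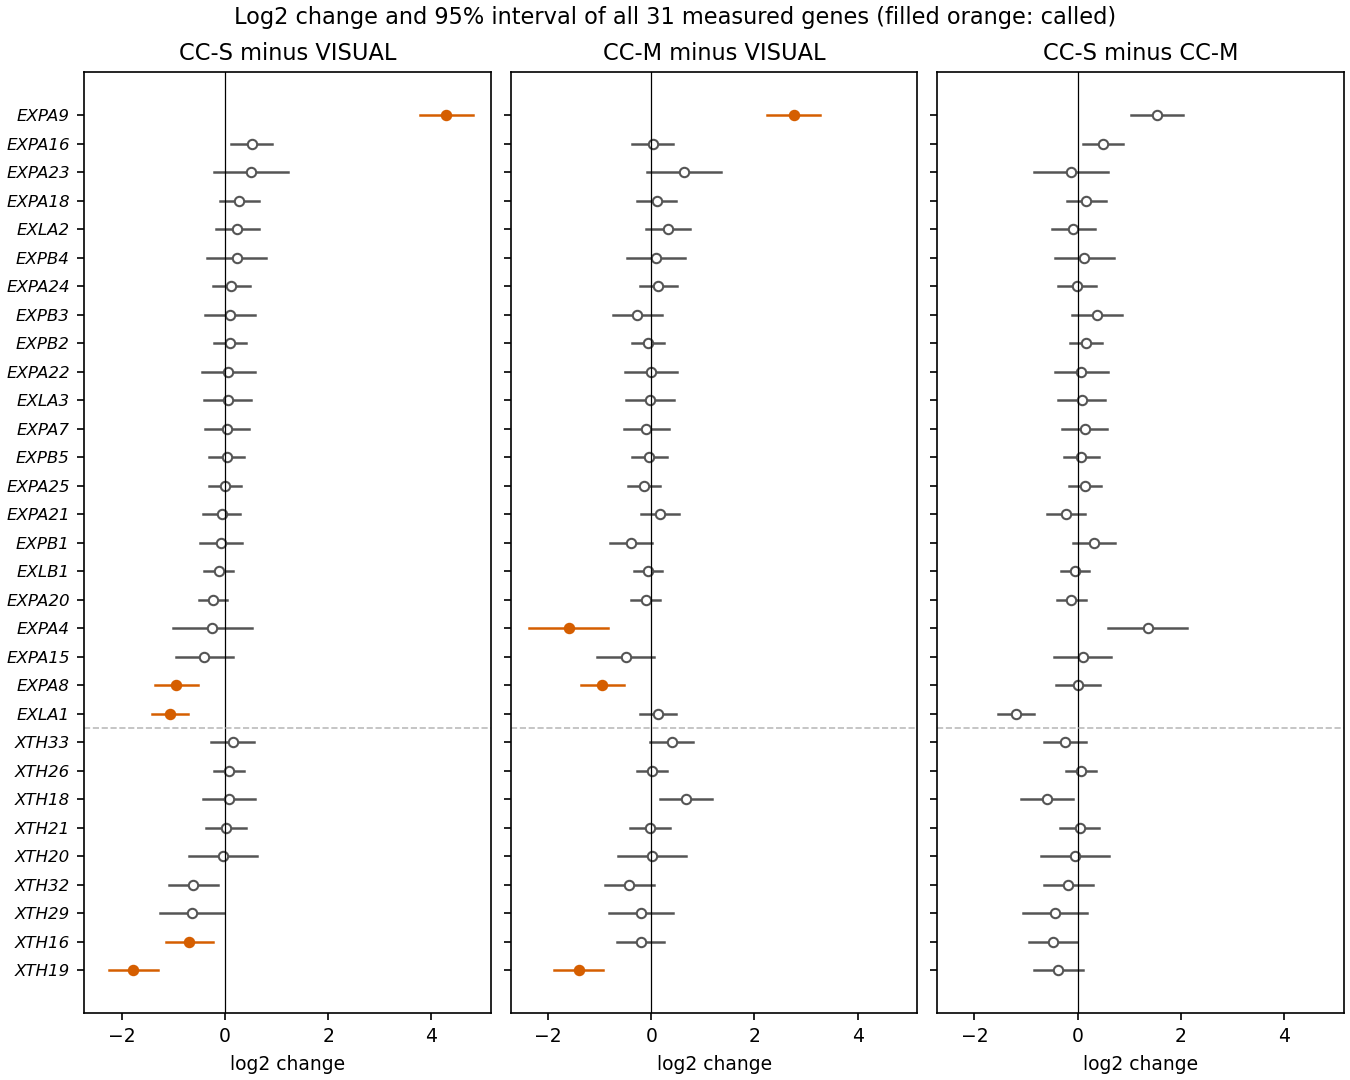
Log2 change (x axis) of each of the 31 genes (y axis) in the 3 comparisons, with 95% intervals from limma; filled orange points were called, and the dashed line divides expansins from XTH genes. Most intervals cross 0; EXPA9 stands far to the right against VISUAL (4.29 for CC-S, 2.76 for CC-M), and EXPA4 and EXLA1 each leave 0 in 1 of the 2 comparisons with VISUAL.

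Among the alpha-expansins, EXPA9 (AT5G02260) encodes a secreted wall-loosening protein. Its log2 signals were 5.11, 5.00 and 5.69 in VISUAL replicates 3, 4 and 5, then 8.45, 7.93 and 7.70 in CC-M and 9.65, 9.60 and 9.43 in CC-S. The 3 groups did not overlap, and every CC-M array lay between the VISUAL and the CC-S arrays. The mean was 5.27 ± 0.37 (SD, n = 3) in VISUAL, 8.03 ± 0.38 (SD, n = 3) in CC-M and 9.56 ± 0.12 (SD, n = 3) in CC-S.

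The rise of EXPA9 to CC-S was 4.29 on the log2 scale (95% interval 3.78 to 4.80), or 19.6-fold (limma adjusted p = 1.72e-05). It ranked 7th from the highest change among 16550 genes. The rise to CC-M was 2.76 (2.25 to 3.27), or 6.77-fold (limma adjusted p = 0.00024), and ranked 17th; in size it was 64.3% of the CC-S rise on the log2 scale. CC-S exceeded CC-M by 1.53 (1.03 to 2.04), a 2.89-fold difference that missed the threshold at a limma adjusted p of 0.0532. Without CC-S replicate 5 that difference was 1.60 (adjusted p = 0.0475), and over the 9 arrays left out in turn the adjusted p ran from 0.0475 to 0.223. Both changes against VISUAL were called without each of the 9 arrays.

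EXPA8 (AT2G40610) is an alpha-expansin known as a brassinosteroid-induced gene. Its log2 signals were 5.85, 5.48 and 5.83 in VISUAL, 4.39, 4.89 and 5.04 in CC-M and 4.72, 4.72 and 4.90 in CC-S. All 6 induced arrays lay below the 3 VISUAL arrays, and CC-M and CC-S overlapped. EXPA8 fell by 0.94 in CC-S (limma adjusted p = 0.00806) and by 0.95 in CC-M (limma adjusted p = 0.0136), so that VISUAL was 1.92-fold above CC-S and 1.93-fold above CC-M. The difference between CC-S and CC-M was 0.01 with a 95% interval of -0.42 to 0.43 and was not called. Both falls were called without each of the 9 arrays.

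EXPA4 (AT2G39700), an alpha-expansin known from pollen tube growth, had its lowest values under moderate induction. Its log2 signals were 6.39, 6.02 and 6.47 in VISUAL, 5.18, 4.30 and 4.62 in CC-M and 6.64, 6.19 and 5.34 in CC-S. CC-M lay below both other groups without overlap, while CC-S overlapped VISUAL and spread over more than a unit, with replicate 5 the closest to CC-M.

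EXPA4 fell by 1.60 from VISUAL to CC-M (95% interval -2.36 to -0.83; limma adjusted p = 0.018), which left VISUAL 3.03-fold above CC-M. Between CC-S and VISUAL its change was -0.24 (-1.01 to 0.53) and was not called. CC-S exceeded CC-M by 1.36 (0.59 to 2.12), or 2.56-fold, at a limma adjusted p of 0.132. Without CC-S replicate 5 this difference was 1.71 and was called (adjusted p = 0.0475). The fall to CC-M lost its call without CC-M replicate 4 (adjusted p = 0.0682) or 5 (0.0585) and without VISUAL replicate 3 (0.0581) or 5 (0.0643), its size staying between -1.84 and -1.40.

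**Figure D3:**
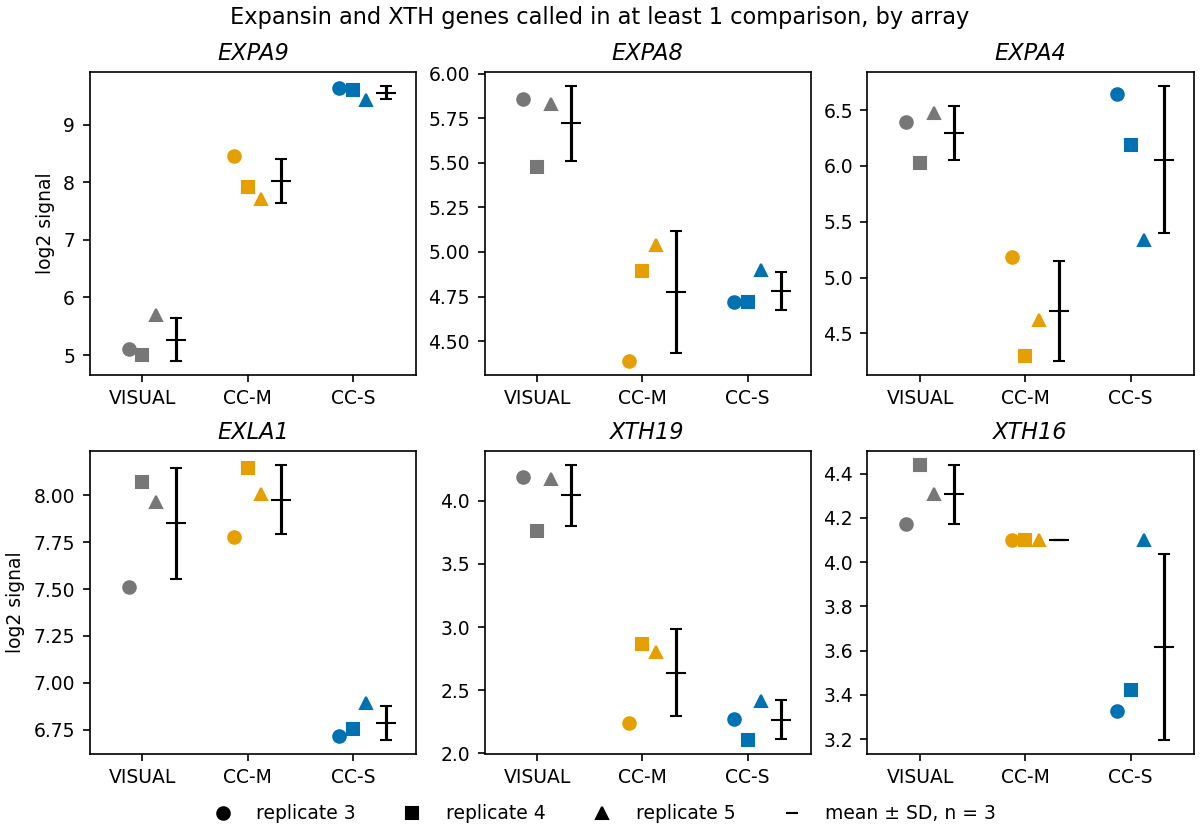
Log2 signal (y axis, a different range in each panel) of the 6 called genes on each array of VISUAL, CC-M and CC-S; symbols mark replicates 3, 4 and 5, and the bar is the group mean ± SD (n = 3). EXPA9 climbs in steps, EXPA8 and XTH19 are lower in both induced groups, EXPA4 is lowest in CC-M, EXLA1 is low in CC-S alone, and XTH16 has the same value on 4 arrays.

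The remaining 10 alpha-expansins were not called in any comparison. EXPA16 came closest, with log2 signals of 4.17, 3.87 and 3.94 in VISUAL, 4.24, 3.82 and 3.99 in CC-M and 4.74, 4.52 and 4.27 in CC-S. CC-S lay above both other groups, by 0.52 over VISUAL (limma adjusted p = 0.0731) and by 0.49 over CC-M (limma adjusted p = 0.275). The difference from VISUAL passed the threshold once CC-S replicate 5 was left out (0.64, limma adjusted p = 0.0483). It also passed when fit and adjustment used single-gene probe sets only (adjusted p = 0.0436) or when replicate numbers were fitted as blocks (adjusted p = 0.042).

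EXPA23 and EXPA15 differed mainly through 1 VISUAL array each. EXPA23 read 3.05 in VISUAL replicate 4 and 4.21 to 4.79 on the other 8 arrays, and its change was 0.50 in CC-S and 0.63 in CC-M. EXPA15 read 4.71 in VISUAL replicate 5 and 3.37 to 3.93 elsewhere, with changes of -0.40 and -0.50. Neither gene was called.

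EXPA7 and EXPA18, expansins of root hair growth, had changes of 0.04 and 0.28 in CC-S and -0.10 and 0.11 in CC-M. EXPA21 to EXPA25 lie together on chromosome 5 in the reference gene table (assembly TAIR10.1), with 1 protein-coding gene of another name between EXPA23 and EXPA25. Apart from EXPA23, their changes lay between -0.07 and 0.13 in CC-S and between -0.14 and 0.16 in CC-M. How far the probes of such relatives read each other was not analysed here.

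EXPA20 was the 1 gene with a second probe set, and the 2 did not move alike. The brighter one had a change of -0.23 from VISUAL to CC-S and was not called, while the dimmer one rose by 0.41, from 5.13 ± 0.08 to 5.54 ± 0.12 (SD, n = 3; limma adjusted p = 0.0382). For CC-M the changes were -0.11 and -0.01. No direction is given for EXPA20.

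None of the 5 beta-expansins was called in any comparison. Their log2 changes ran from -0.07 (EXPB1) to 0.23 (EXPB4) in CC-S and from -0.40 (EXPB1) to 0.09 (EXPB4) in CC-M. EXPB4 stood out by 1 array, with 3.63 in CC-S replicate 5 and 2.65 to 2.88 on the other 8. EXPB3 had 5.14 and 5.20 in CC-S replicates 3 and 4 and 4.43 in replicate 5, against 4.77 to 4.88 in VISUAL. EXPB2 had changes of 0.10 in CC-S and -0.06 in CC-M, and EXPB5 of 0.04 and -0.04.

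Among the expansin-like genes, EXLA1 (AT3G45970) was low under strong induction and not under moderate induction. Its log2 signals were 7.51, 8.07 and 7.97 in VISUAL, 7.78, 8.14 and 8.01 in CC-M and 6.72, 6.75 and 6.89 in CC-S. The 3 CC-S arrays lay below the other 6, while CC-M and VISUAL overlapped.

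EXLA1 fell by 1.06 from VISUAL to CC-S (95% interval -1.42 to -0.71; limma adjusted p = 0.00186), which left VISUAL 2.09-fold above CC-S. Its change from VISUAL to CC-M was 0.13 (-0.23 to 0.48) and was not called. CC-S lay below CC-M by 1.19 on the log2 scale, a change of -1.19 (-1.54 to -0.84) at a limma adjusted p of 0.0532. With CC-S replicate 5 left out the change was -1.24 and passed the threshold (adjusted p = 0.0387), while its adjusted p reached 0.209 over the arrays left out in turn. The fall against VISUAL was called without each of the 9 arrays.

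EXLA3, the next gene to EXLA1 on chromosome 3, had changes of 0.05 in CC-S and -0.03 in CC-M. EXLA2 changed by 0.24 and 0.33 and EXLB1 by -0.12 and -0.07 in the same comparisons, and none of the 3 was called anywhere.

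**Figure D4:**
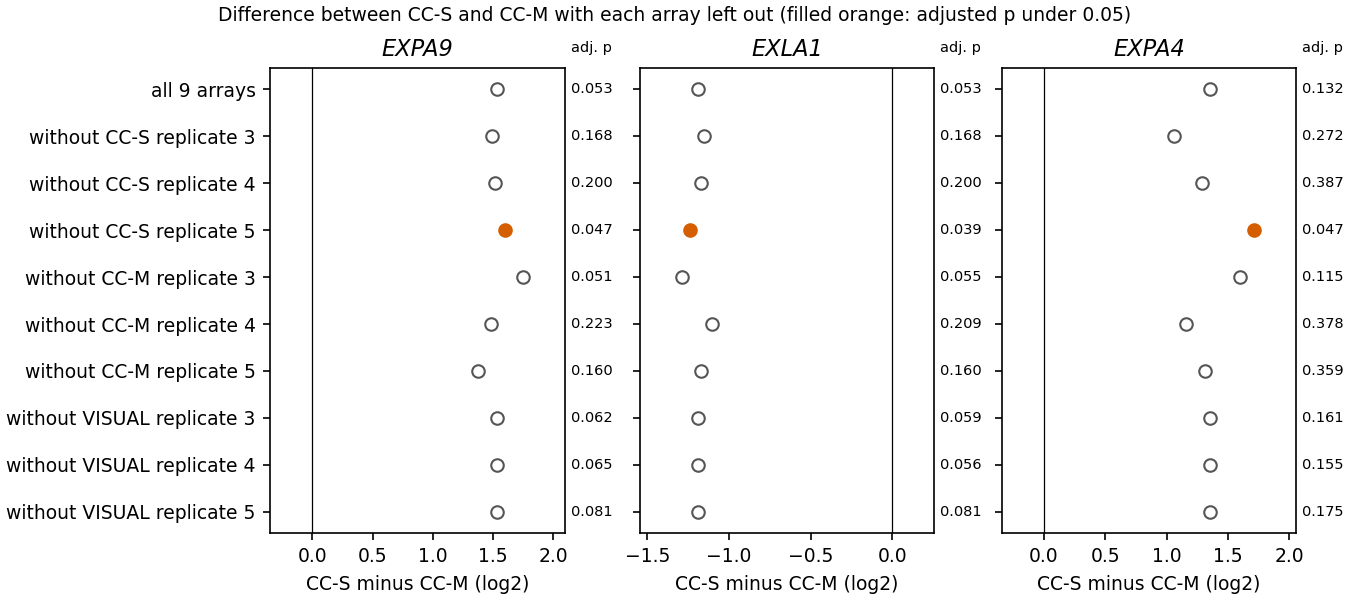
Difference between CC-S and CC-M in log2 signal (x axis) for EXPA9, EXLA1 and EXPA4, with all 9 arrays and with each array left out (y axis); limma adjusted p is printed at the right and filled orange points are under 0.05. Each gene keeps its sign throughout, at 1.37 to 1.75 for EXPA9, -1.29 to -1.11 for EXLA1 and 1.06 to 1.71 for EXPA4, and each was called in 1 of the 9 leave-out fits, the one without CC-S replicate 5.

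Of the 9 XTH genes, 2 fell to CC-S, 1 fell to CC-M and none rose. The shares called, 22.2% and 11.1%, were near the 20.2% and 12.0% of all genes. XTH19 (AT4G30290), an auxin-responsive XTH also known from tissue reunion in cut stems, fell furthest. Its log2 signals were 4.19, 3.76 and 4.18 in VISUAL, 2.24, 2.87 and 2.80 in CC-M and 2.27, 2.11 and 2.42 in CC-S. All 6 induced arrays lay below the VISUAL arrays, and CC-M and CC-S overlapped.

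XTH19 fell by 1.78 in CC-S (95% interval -2.25 to -1.30; limma adjusted p = 0.000636) and by 1.40 in CC-M (-1.88 to -0.93; limma adjusted p = 0.00379). VISUAL was 3.43-fold above CC-S and 2.65-fold above CC-M. The change between CC-S and CC-M was -0.37 (-0.85 to 0.10) and was not called. Both falls were called without each of the 9 arrays. The mean signal of XTH19 over the 9 arrays lay at percentile 22.4 of all probe sets, among the dimmest 40%.

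XTH18 is the neighbour of XTH19 on chromosome 4 and its close relative, and it did not share the fall. Its log2 signals were 3.88, 4.16 and 4.25 in VISUAL, 4.70, 4.64 and 4.97 in CC-M and 4.04, 3.83 and 4.64 in CC-S. CC-M lay above VISUAL without overlap, by 0.67 (limma adjusted p = 0.0891), and CC-S differed from VISUAL by 0.08. The difference between CC-M and VISUAL passed the threshold with CC-S replicate 5 left out (limma adjusted p = 0.0346) or with replicate numbers fitted as blocks (adjusted p = 0.048).

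XTH16 (AT3G23730) read 4.17, 4.44 and 4.31 in VISUAL and 3.33, 3.42 and 4.101 in CC-S, and all 3 CC-M arrays read 4.101. The identical value on 4 arrays, CC-S replicate 5 included, gives CC-M an SD of 0. XTH16 fell by 0.69 in CC-S (limma adjusted p = 0.0453), and its change in CC-M was -0.21. The call in CC-S was kept in 1 of the 9 leave-out fits, the one without CC-S replicate 5 (-0.93, adjusted p = 0.00343), and its adjusted p reached 0.146 without CC-S replicate 4. It was also lost with replicate numbers fitted as blocks (adjusted p = 0.0546) and with only the 6 arrays of these groups in the fit (adjusted p = 0.106).

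Identical values on at least 2 arrays occurred in 12 of the 31 genes (38.7%) and in 33.1% of all probe sets. The source of the repeated values is not stated in the sources used here. EXLB1 had the same value on 5 arrays, XTH26 and EXPB5 shared values on 4 arrays each, and of the other called genes EXPA8 had 1 such pair.

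XTH32, a member of the XTH group whose enzymes mainly hydrolyse xyloglucan, and XTH29 had changes of the same sign as XTH16 and were not called. XTH32 read 5.43, 4.83 and 4.64 in VISUAL, 4.59, 4.56 and 4.46 in CC-M and 4.12, 4.37 and 4.56 in CC-S, a change of -0.61 in CC-S (limma adjusted p = 0.0773) and -0.43 in CC-M. It was called in CC-S without VISUAL replicate 5 (-0.78, adjusted p = 0.045) and with single-gene probe sets only (adjusted p = 0.0472). XTH29 had changes of -0.64 (limma adjusted p = 0.151) and -0.21.

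XTH33, a membrane-anchored XTH, had changes of 0.15 in CC-S and 0.39 in CC-M (limma adjusted p = 0.229). XTH20, XTH21 and XTH26, known mainly from roots, changed by -0.03, 0.02 and 0.08 in CC-S and by 0.02, -0.02 and 0.01 in CC-M. XTH20 had a mean log2 signal of 1.14 with 0.391% of probe sets at or below it, so a change in it may not have been detectable.

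Over the 25 genes called in no comparison, the log2 change ran from -0.64 to 0.52 in CC-S, from -0.50 to 0.67 in CC-M and from -0.60 to 0.49 between CC-S and CC-M. Of the 31 genes, 13 had their highest group mean in CC-S, 8 in CC-M and 10 in VISUAL. The within-group SD of the 31 genes had a median of 0.23, beside 0.17 over all single-gene probe sets.

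Other genes of wall building and trimming were looked at by fixed lists. Of 4 measured CSLC genes of xyloglucan backbone synthesis, 0 were called by limma in any comparison; at an unadjusted p under 0.05 there was CSLC04 alone, with changes of -0.37 in CC-S, 0.46 in CC-M and -0.83 between CC-S and CC-M (limma adjusted p = 0.0648). Of 20 measured genes of cellulose synthesis and trimming, nearly all of them GH9 endoglucanases, 2 fell and 0 rose in CC-S, where 10.0% of all genes fell and 10.2% rose. In CC-M 3 fell and 0 rose, where 5.66% of all genes fell and 6.31% rose. GH9B5 fell by 2.00 in CC-S and 1.36 in CC-M, and GH9B7 by 1.30 and 1.06. GH9C2, of the class that carries a carbohydrate-binding module, fell by 1.31 in CC-M (limma adjusted p = 0.0199), with a change of -0.05 in CC-S. The list's median change was 0.0025 in CC-S and -0.04 in CC-M.

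Of 3 measured pectin methylesterase genes, ATPMEPCRB rose by 0.60 in CC-S and by 0.81 in CC-M (limma adjusted p = 0.0311 and 0.0142). PME61 and AT4G02300 (PME39) were not called in any comparison. The lists of wall proteins and of proton pump and SAUR acid growth genes had 0 measured members and were not analysed here. Outside the symbol rule, EXGT-A3 (XTH27) had changes of -0.08 in CC-S and 0.15 in CC-M, and AT4G30380 (EXLB2) had 0.24 and 0.11; neither was called.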

How the data were processed

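The deposited values are the authors' log2 signals of 38408 probe sets on 9 one-colour Affymetrix arrays, from 0.0698 to 13.9, with array medians of 4.71 to 4.90. Affymetrix Expression Console is named in the submitters' processing notes; the sources used here state neither the summary method nor a build. Values were used as deposited. No detection call is given, and the number of arrays limits the precision. Probe sets were named through the platform annotation and a TAIR10.1 gene table: 16722 name 1 gene, 759 several and 20927 are unnamed here; all 32 probe sets of the family matched.

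All probe sets were tested in 1 limma 3.58.1 fit (R 4.3.3; lmFit, eBayes with an intensity trend, a mean per group, 2-sided, 6 residual degrees of freedom). P-values were adjusted by Benjamini-Hochberg across the 38408 probe sets, and genes below 0.05 were called. Changes are the first group minus the second. The code was tested on simulated data. Members and lists were chosen with earlier results of these data known. Every member is named; those called, with EXPA9 and EXPA8, get each array's value, and each list its called members, up to 3 per comparison. Genes named beyond this were chosen after their values were seen. The list entries FDH (here formate dehydrogenase), PRP39, PGL34 and FIB were left out because the symbol belongs to another kind of protein. Sequences were not used here. Alternatives covered normalization, variance model, dim probe sets, array weights, samples fitted, the replicate block and each array left out. Python 3.11.15, pandas 2.3.3 and matplotlib 3.10.9 prepared tables and plots.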

Additional observations from a re-analysis of the deposited data

How the results depend on the processing

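In 20 other settings no called change of the 31 genes reversed. From VISUAL to CC-S the count of called genes was 5 and became 3 with the dimmest 40% of probe sets left out, where 18 of the 31 remained, and 2 (EXPA9 and XTH19) when testing for a change beyond 1.5-fold; it was 7 with single-gene probe sets only, which added EXPA16 and XTH32, and 4 to 6 with an array left out. From VISUAL to CC-M it was 4 and became 1 (EXPA9) beyond 1.5-fold, and 3 to 5 with an array left out. Between CC-S and CC-M it was 0 and became 1 with quantile normalization, 2 with arrays centred on their medians, 2 with the dimmest 40% left out, 2 with single-gene probe sets only and 3 with arrays weighted by quality, with 0 to 3 when an array was left out. The genes called there were EXLA1 throughout, EXPA9 in all but quantile normalization, and EXPA4 with weights and without CC-S replicate 5. The cause was not tested. Where probe sets were left out, both the fit and the adjustment ran over fewer of them. The share called over all tested probe sets moved too. From VISUAL to CC-S it was 19.2%, then 32.7% without the dimmest 40% and 3.16% beyond 1.5-fold. From VISUAL to CC-M it was 11.6%, then 1.26% beyond 1.5-fold. Between CC-S and CC-M it was 0.0208%, then 0.109% with quantile normalization and 0.0989% with centred arrays. It was 1.35% without the dimmest 40%, 1.07% with single-gene probe sets, 2.21% with weights and 0.805% without CC-S replicate 5. With replicate numbers fitted as blocks (the replicate block) the counts were 5, 5 and 0; in CC-S XTH16 lost its call (adjusted p = 0.0546) and EXPA16 gained one (0.042), and in CC-M XTH18 gained one (0.048). The labels do not say that arrays with the same replicate number are paired. Deviations of same-number pairs correlated at -0.0328 to 0.121, with 2 of 9 pairs over 0.1. Pairs of different numbers ran from -0.158 to 0.0839. Of the 9 arrays, 6 correlated best with an array of their own number. Whether shared numbers mark paired arrays was not tested. Of the 93 results for a gene in a comparison, 6 lost a call in at least 1 setting and 6 gained one; XTH16 in CC-S lost it in 11 settings.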
